A study of Mus musculus with 4 samples.

Results

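The genes of glycolysis, of glucose and lactate transport and of the enzymes that steer pyruvate were examined in mouse T helper 17 (Th17) cultures. They were chosen by name, from a list of 34 transporter, enzyme and regulator genes, and 33 of them were found among the 19555 rows of the deposited tables. The remaining gene, Fbp1, was not analysed here. Naive CD4+ T cells of C57BL/6 mice, taken from spleen plus lymph nodes, were activated and kept for 3 days in vitro with IL-6 and TGF-β1, and all groups shared these cytokines. The groups were wild-type cells at 37 °C, wild-type cells at 39.5 °C, cells labelled Smad4 KO at 37 °C and cells labelled Smad4 KO at 39.5 °C. Each of these 4 groups had 1 RNA-seq library. Smad4 encodes the partner shared by the SMAD proteins that carry TGF-β signals. The sources used here do not give how Smad4 was deleted, in which cells, the age of the mice, or how many mice or cultures stood behind a library.

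Glycolysis turns glucose into pyruvate in the cytosol. Glucose enters through GLUT transporters, is trapped by hexokinase, is split after phosphofructokinase, and yields ATP at phosphoglycerate kinase and pyruvate kinase. Pyruvate is then reduced to lactate by lactate dehydrogenase and exported by monocarboxylate transporters, or enters mitochondria unless pyruvate dehydrogenase kinases close that gate. Activated T cells raise this pathway, and Th17 cells are known to depend on it through the transcription factor HIF-1α. Most steps can be run by several isoforms from separate genes, which differ in kinetics and regulation.

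Expression is given as RPKM (read counts divided by exon length and by library size). For nearly all of these genes that length is the joined length of all annotated exons, such as 4133 bases for Gapdh and 13401 for Pfkp. The transcripts present can be shorter, by an amount that differs between genes. Levels, their order and isoform shares are therefore only approximate when set side by side between genes, while ratios within a gene do not depend on the length. Whole reads recovered from these values summed to between 18290317 and 18732982 per library. The library sizes behind the RPKM differed from these sums. They were 0.996 and 1.04 of the sum in wild type and 0.942 and 0.983 with the Smad4 KO label, at 37 and 39.5 °C. Smad4 itself stood at 14.0 and 14.2 RPKM in wild type and at 20.7 and 21.3 RPKM with the Smad4 KO label, at 37 and 39.5 °C in each case. The targeted gene was thus higher with the KO label (ratios 1.48 and 1.51, limma log2 0.54 ± 0.12, adjusted p = 0.0454), so every genotype direction given here is that of the label, and no genotype result can be had without these libraries. A value per whole gene does not show whether a few exons were lost. Cd4 was at 192 to 212 RPKM and Cd3e at 49.0 to 59.2 RPKM, and Il17a and Il17f, the defining Th17 cytokine genes, were present in all libraries. Markers of other cells were low, with Cd8b1 reaching 4.01 RPKM, the B cell gene Ighm 14.3 RPKM and the myeloid gene Lyz2 1.22 RPKM at most. Cd8a and Itgam had no row. Il17a and Ighm moved with the conditions (Il17a at 134 and 686 RPKM in wild type, 32.6 and 79.7 RPKM with the KO label; Ighm at 14.3, 4.39, 8.69 and 3.37 RPKM in the same order). Their part in the results was not tested. In bulk RNA, fewer cells of a type and less RNA per cell cannot be told apart.

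**Figure D1:**
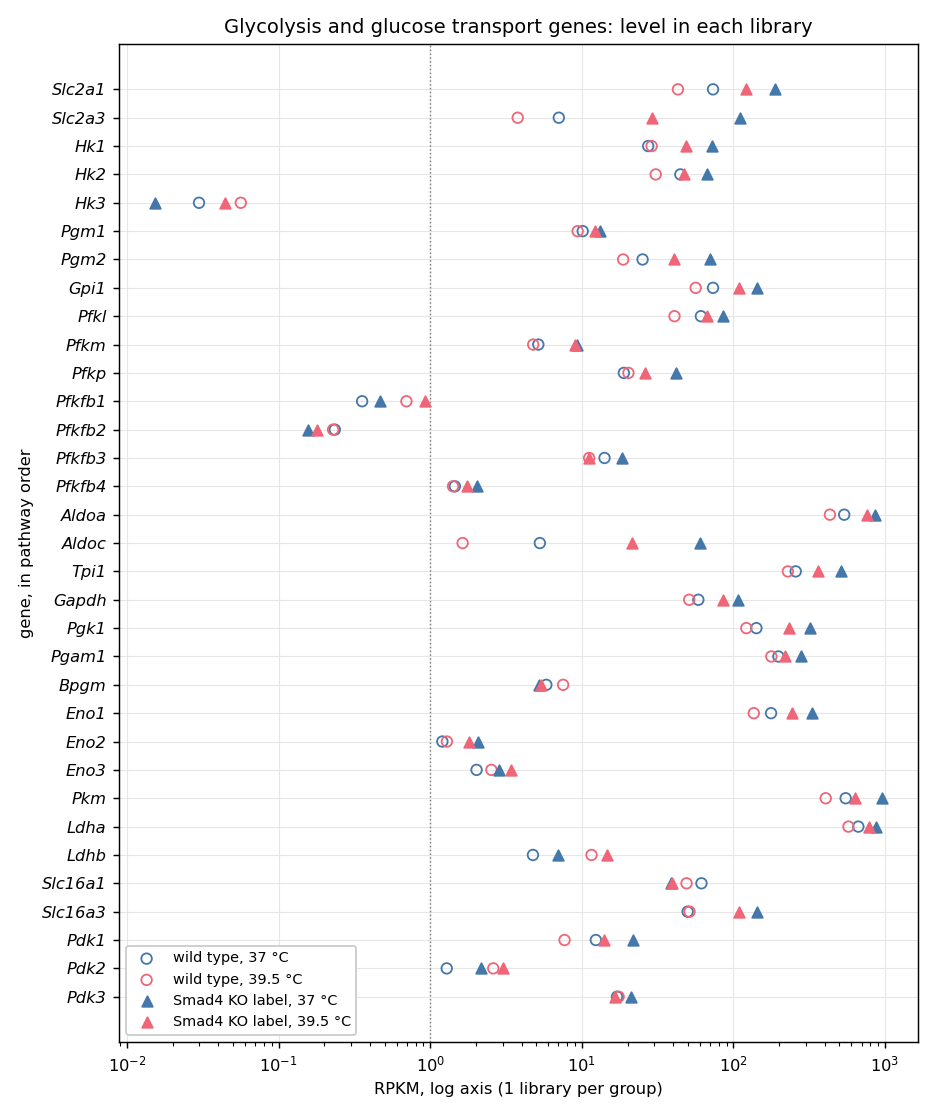
RPKM (log axis) of the 33 genes in pathway order, 1 symbol per library, with circles for wild type, triangles for the Smad4 KO label, blue for 37 °C and red for 39.5 °C. The dotted line marks 1 RPKM. In 24 genes both triangles lie to the right of both circles, and Slc2a3 and Aldoc have the widest gaps.

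In wild type at 37 °C the order of levels was led by Ldha (666 RPKM), the main lactate dehydrogenase subunit gene of activated T cells, Pkm (549.7 RPKM), the pyruvate kinase gene, and Aldoa (538 RPKM), the ubiquitous aldolase gene. These 3 genes held 56.4, 55.4, 50.2 and 53.6% of the summed RPKM of the 33 genes in wild type at 37 °C, wild type at 39.5 °C, the KO label at 37 °C and the KO label at 39.5 °C. That sum stood at 3110 RPKM in wild type at 37 °C, 2550.0 RPKM in wild type at 39.5 °C, 5367 RPKM with the KO label at 37 °C and 4071 RPKM with the KO label at 39.5 °C. It was higher with the KO label at both temperatures and lower at 39.5 °C in both genotypes. At the other end, 3 genes had a mean under 1 RPKM and entered no test. They were the myeloid hexokinase gene Hk3 (1 to 4 reads per library), Pfkfb1 (26 to 68 reads) and Pfkfb2 (20 to 32 reads). The other 30 genes were at 1 RPKM or more in every library.

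The genotype label was the condition with which most of the pathway moved. In an additive limma fit of the 4 libraries (genotype and temperature, on log2(RPKM + 1)), 18 of the 30 genes rose with the KO label and 0 fell at a Benjamini-Hochberg adjusted p under 0.05. Over all 13715 rows tested, 8.57% rose and 4.70% fell. The 18 genes were Slc2a1, Slc2a3, Hk1, Hk2, Pgm2, Gpi1, Pfkl, Pfkm, Aldoa, Aldoc, Tpi1, Gapdh, Pgk1, Eno1, Pkm, Ldha, Slc16a3 and Pdk1. The median log2 difference of the 30 genes was 0.72, against −0.01 over all rows. In 24 of the 30 genes both libraries labelled Smad4 KO lay above both wild-type libraries, against 29.4% of all rows, and in 2 genes (Bpgm and Slc16a1) both lay below, against 30.1%. The fit has 1 residual degree of freedom, and its p-values set a difference against the genotype-by-temperature interaction in these libraries and a variance trend over all rows, not against a spread between mice or cultures. Without the minimum mean of 1 RPKM, limma called 0 of all 19555 rows for genotype (the 18 genes then had adjusted p of 0.0546 to 0.124).

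**Figure D2:**
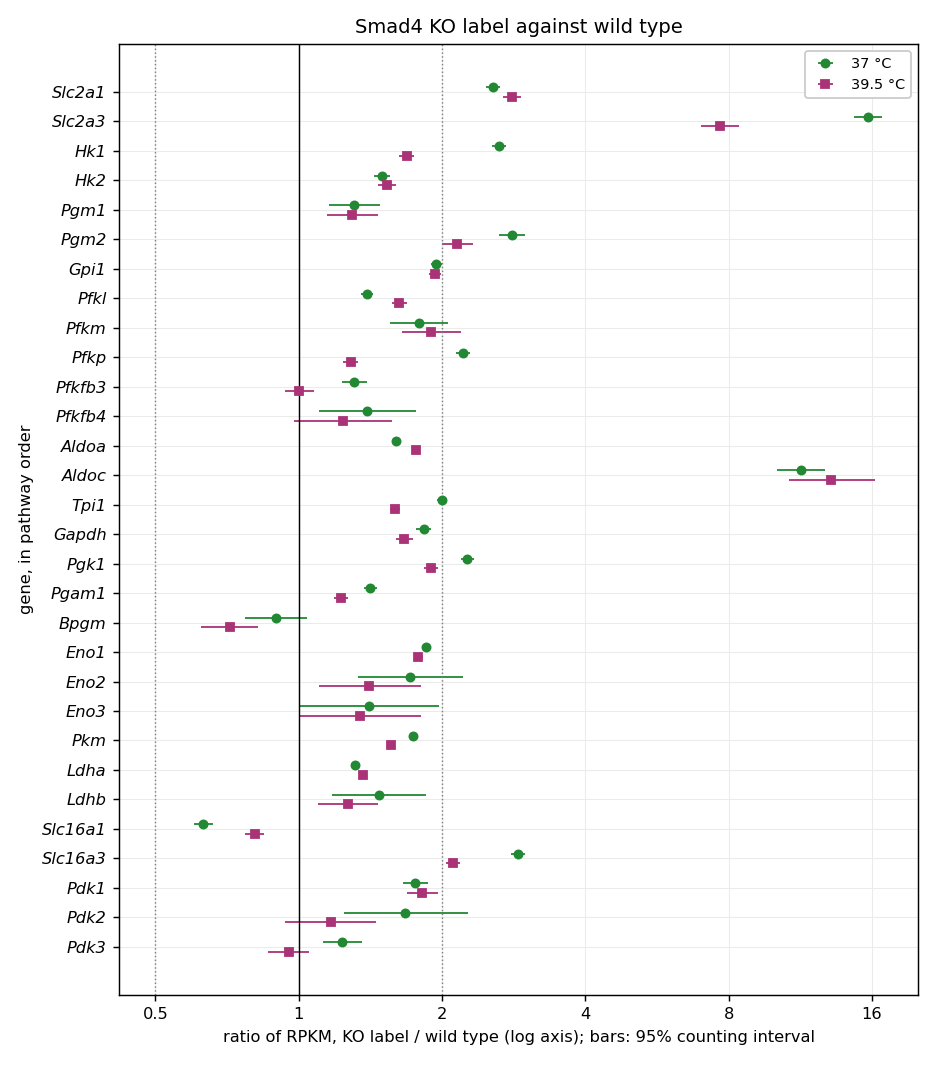
Ratio of RPKM, Smad4 KO label over wild type (log axis), for the 30 genes tested, with green circles at 37 °C, purple squares at 39.5 °C and bars for 95% intervals of counting error. Most symbols lie to the right of 1, Slc2a3 and Aldoc lie far to the right, and Slc16a1 and Bpgm lie below 1 at both temperatures.

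Both glucose transporter genes of the list, Slc2a1 and Slc2a3, rose with the KO label. Slc2a1, which encodes the ubiquitous transporter GLUT1 (chromosome 4, 119108711 to 119137983, plus strand, GRCm38), stood at 73.3 RPKM in wild type at 37 °C, 43.0 RPKM in wild type at 39.5 °C, 188 RPKM with the KO label at 37 °C and 121 RPKM with the KO label at 39.5 °C. Both KO-labelled libraries were above both wild-type libraries. At 37 °C the ratio of the KO label to wild type was 2.56, with a 95% interval for counting error of 2.48 to 2.65. At 39.5 °C it was 2.80 (2.69 to 2.93), and the shared log2 difference was 1.41 ± 0.12 (SE, limma adjusted p = 0.00977). Slc2a3, which encodes the high-affinity transporter GLUT3 (chromosome 6, 122727809 to 122801640, minus strand), stood at 7.05, 3.77, 111 and 29.0 RPKM in the same order. Both KO-labelled libraries were far above both wild-type libraries, and the one at 37 °C was the highest. Its ratios were 15.7 (14.7 to 16.8) and 7.68 (7.01 to 8.43), with a shared log2 difference of 3.22 ± 0.27 (adjusted p = 0.0103).

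Most of the genes that prepare glucose for cleavage rose. Hk1, the housekeeping hexokinase gene, stood at 27.4, 28.9, 72.1 and 48.6 RPKM and Hk2, the inducible hexokinase gene, at 44.6, 30.7, 66.7 and 47.0 RPKM in wild type at 37 and 39.5 °C and with the KO label at 37 and 39.5 °C. The KO-labelled libraries were above wild type for each gene, narrowly so for Hk2. The ratio of Hk1 was 2.63 (2.54 to 2.73) at 37 °C and 1.69 (1.62 to 1.75) at 39.5 °C, and that of Hk2 was 1.5 and 1.53. The shared log2 differences were 1.05 ± 0.18 for Hk1 and 0.58 ± 0.12 for Hk2 (limma adjusted p = 0.0263 and 0.0364). Gpi1, the glucose-6-phosphate isomerase gene, had nearly the same genotype ratio at both temperatures, with 73.3, 56.3, 143 and 109 RPKM in the same order and a ratio to wild type of 1.94 at both temperatures (log2 0.95 ± 0.11, limma adjusted p = 0.0151).

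Among phosphofructokinase genes, the liver-type Pfkl (log2 0.58 ± 0.13, limma adjusted p = 0.0417) and the muscle-type Pfkm (0.77 ± 0.13, adjusted p = 0.0237) rose. The platelet-type Pfkp did not pass the test (0.73 ± 0.20, adjusted p = 0.0706), with 18.9 and 20.3 RPKM in wild type and 41.9 and 26.1 RPKM with the KO label. Its ratio was 2.21 (2.14 to 2.29) at 37 °C and 1.29 (1.24 to 1.33) at 39.5 °C. It passed with a minimum mean of 5 RPKM (limma adjusted p = 0.0197) and with limma-voom on the recovered reads (adjusted p = 0.0475). Exons of Pfkp share 748 of 13401 bases with the oppositely oriented gene Pitrm1. The called genes Pgm2, Gpi1 and Hk1 share 398 of 2921 bases with Itgb3bp, 741 of 6452 with Gm26762 and 157 of 8532 with Hk1os, also on the opposite strand. Without strand the reads in such stretches cannot be told apart. The called genes Pkm and Pfkm share 767 of 5001 bases with Gm49759 and 341 of 3340 with Gm26513, on the same strand, where strand does not help. Shorter stretches on the opposite strand are shared by Slc2a1, Gapdh, Tpi1 and Aldoa. The PFKFB genes encode the enzymes that make and degrade fructose-2,6-bisphosphate, the main activator of phosphofructokinase. Pfkfb3, the most abundant of them, was at 14.1 and 11.2 RPKM in wild type and 18.5 and 11.2 RPKM with the KO label, and neither it (log2 0.18 ± 0.14, adjusted p = 0.404) nor Pfkfb4 (adjusted p = 0.289) passed.

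Phosphoglucomutase joins glycolysis to glycogen. Pgm2 as the deposited tables name it rose with the KO label, from 25.1 and 18.7 RPKM in wild type to 70.4 and 40.3 RPKM (log2 1.26 ± 0.14, limma adjusted p = 0.0148). Pgm1 as the tables name it was at 10.1 and 9.38 RPKM, then 13.3 and 12.1 RPKM, and did not pass (adjusted p = 0.112). These names are exchanged against the GENCODE vM21 annotation. The exon lengths behind the deposited values are 2921 bases for Pgm2 and 2590 bases for Pgm1, which are the annotation's lengths of Pgm1 on chromosome 4 (99929414 to 99987294) and Pgm2 on chromosome 5 (64092950 to 64128351). The gene that rose is therefore the one that the current annotation calls Pgm1.

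Aldoc, the brain-type aldolase gene (chromosome 11, 78322968 to 78327781, plus strand), had, with Slc2a3, by far the largest genotype differences of the pathway. Which of them was larger depended on the temperature and the setting: Aldoc had the larger ratio at 39.5 °C, and the larger shared log2 difference with a pseudocount of 0.1 or 0.5 and with limma-voom. Aldoc stood at 5.28 RPKM in wild type at 37 °C, 1.63 RPKM in wild type at 39.5 °C, 59.9 RPKM with the KO label at 37 °C and 21.5 RPKM with the KO label at 39.5 °C, and the groups did not overlap. The ratio to wild type was 11.3 (10.1 to 12.8) at 37 °C and 13.1 (10.7 to 16.2) at 39.5 °C, with a log2 difference of 3.18 ± 0.13 (limma adjusted p = 0.00539). The far more abundant Aldoa was at 538, 433, 862 and 763 RPKM in the same order, and its ratios of 1.60 and 1.76 were much smaller (log2 0.75 ± 0.10, adjusted p = 0.0169).

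Among the enzymes that follow aldolase, the genes of triosephosphate isomerase (Tpi1, 257, 229, 514 and 364 RPKM), glyceraldehyde-3-phosphate dehydrogenase (Gapdh, 58.6, 51.0, 107 and 85.1 RPKM) and phosphoglycerate kinase (Pgk1, 142, 122, 320.1 and 231 RPKM) rose. So did those of enolase 1 (Eno1, 177, 136, 328 and 243 RPKM) and pyruvate kinase (Pkm, 549.7, 406, 956 and 634 RPKM). Their shared log2 differences lay between 0.72 ± 0.10 for Pkm and 1.04 ± 0.12 for Pgk1, with limma adjusted p between 0.0148 and 0.0203. Pgam1, the phosphoglycerate mutase gene, was at 198 and 178 RPKM in wild type and 279.7 and 218 RPKM with the KO label and did not pass (0.39 ± 0.12, adjusted p = 0.0777). With a minimum mean of 5 RPKM it passed (limma adjusted p = 0.0462). Bpgm, whose product makes 2,3-bisphosphoglycerate beside the main route, was lower with the label (5.83, 7.52, 5.21 and 5.39 RPKM, adjusted p = 0.220). Eno2 and Eno3, the neuronal and muscle enolase genes, were at 1.20 to 2.06 and 2.02 to 3.40 RPKM, and neither passed (adjusted p = 0.139 and 0.153).

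At the end of the pathway the pair of lactate transporter genes differed in opposite directions. Slc16a3 encodes MCT4, a transporter suited to lactate export, and stood at 49.8 and 51.3 RPKM in wild type and at 144 and 108 RPKM with the KO label (log2 1.29 ± 0.15, limma adjusted p = 0.0148). Slc16a1 encodes MCT1 and was at 61.5 and 49.0 RPKM in wild type and at 38.7 and 39.6 RPKM with the KO label. Both KO-labelled libraries lay below both wild-type libraries, but the difference did not pass (−0.48 ± 0.14, adjusted p = 0.0783). It passed as a decrease with limma-voom on the recovered reads and with a minimum mean of 5 RPKM.

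Of the lactate dehydrogenase and pyruvate dehydrogenase kinase genes, Ldha and Pdk1 rose. Ldha was at 666 and 573 RPKM in wild type and at 874 and 783 RPKM with the KO label (log2 0.42 ± 0.10, limma adjusted p = 0.0472). That call sat near the threshold and was lost in 5 of 9 alternative settings, with adjusted p up to 0.124. Pdk1, the kinase gene that HIF-1α is known to drive, rose (12.4, 7.69, 21.7 and 14.0 RPKM, log2 0.78 ± 0.12, adjusted p = 0.0223). Pdk2 (adjusted p = 0.208) and Pdk3 (adjusted p = 0.618) did not pass.

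The start regions of genes that rose together are shown for the 4 with the largest differences that have an entry in the RefSeq promoter table, which holds 32 of the 33 genes, and for Ldhb, whose temperature values stand apart below. Each is the 250 bases before the start that lies farthest upstream among the RefSeq table's entries for the gene, 5′ to 3′ on the gene's strand (GRCm38.p6). Except for Ldhb, these RefSeq starts differ from the GENCODE vM21 starts: the windows of Aldoc, Slc2a1 and Pgm2 run past the GENCODE start, and that of Slc16a3 lies inside the GENCODE gene. Capitals mark the letters ACGTG or GCGTG on either strand, the core of the hypoxia response element that HIF factors are known to bind.
Aldoc, chr11:78322823-78323072, plus strand: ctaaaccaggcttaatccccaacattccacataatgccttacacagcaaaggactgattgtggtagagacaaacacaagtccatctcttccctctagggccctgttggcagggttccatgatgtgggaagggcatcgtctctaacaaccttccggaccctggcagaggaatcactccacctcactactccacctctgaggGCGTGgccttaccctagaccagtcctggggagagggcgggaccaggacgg
Slc2a1, chr4:119108495-119108744, plus strand: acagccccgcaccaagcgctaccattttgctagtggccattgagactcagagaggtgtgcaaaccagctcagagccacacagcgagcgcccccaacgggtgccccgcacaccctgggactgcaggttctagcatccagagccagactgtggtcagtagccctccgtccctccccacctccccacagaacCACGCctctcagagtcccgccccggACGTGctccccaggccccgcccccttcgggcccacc
Slc16a3, chr11:120948817-120949066, plus strand: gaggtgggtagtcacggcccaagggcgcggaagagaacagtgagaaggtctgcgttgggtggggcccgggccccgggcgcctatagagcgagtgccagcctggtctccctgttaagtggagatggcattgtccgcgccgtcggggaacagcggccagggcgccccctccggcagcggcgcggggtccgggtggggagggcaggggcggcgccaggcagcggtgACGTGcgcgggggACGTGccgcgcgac
Pgm2 (Pgm1 in RefSeq), chr4:99929201-99929450, plus strand: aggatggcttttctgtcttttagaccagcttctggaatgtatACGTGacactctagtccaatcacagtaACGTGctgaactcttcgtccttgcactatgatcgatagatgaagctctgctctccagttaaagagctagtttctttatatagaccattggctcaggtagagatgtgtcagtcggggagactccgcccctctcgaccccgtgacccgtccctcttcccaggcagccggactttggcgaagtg
Ldhb, chr6:142507958-142508207, minus strand: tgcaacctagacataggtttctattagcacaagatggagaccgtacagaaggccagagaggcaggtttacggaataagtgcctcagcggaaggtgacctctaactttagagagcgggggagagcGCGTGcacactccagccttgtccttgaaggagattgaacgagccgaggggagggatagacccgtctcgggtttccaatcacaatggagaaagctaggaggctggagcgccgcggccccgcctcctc
ACGTG occurred 2 times each in the windows of Slc16a3 and Pgm2 and 1 time in that of Slc2a1, and GCGTG occurred 1 time each in those of Aldoc, Slc2a1 and Ldhb. In all, 24 of 32 genes held either core in this window, against 38.6% of 27025 mouse genes with an entry. ACGTG alone was in 43.8% against 16.5%, and GCGTG alone in 43.8% against 28.3%. The full E-box CACGTG, the MYC-type site that contains ACGTG, was in 4 genes (12.5%) against 6.04%, and CAGACA, a SMAD-type box, in 1 gene (3.12%) against 17.1%. The windows also differed in base composition, with a median of 57.8% G and C and 13 CG steps in the 32 genes against 52.0% and 6 over all genes, and its part in these shares was not tested. A match describes the letters only.

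**Figure D3:**
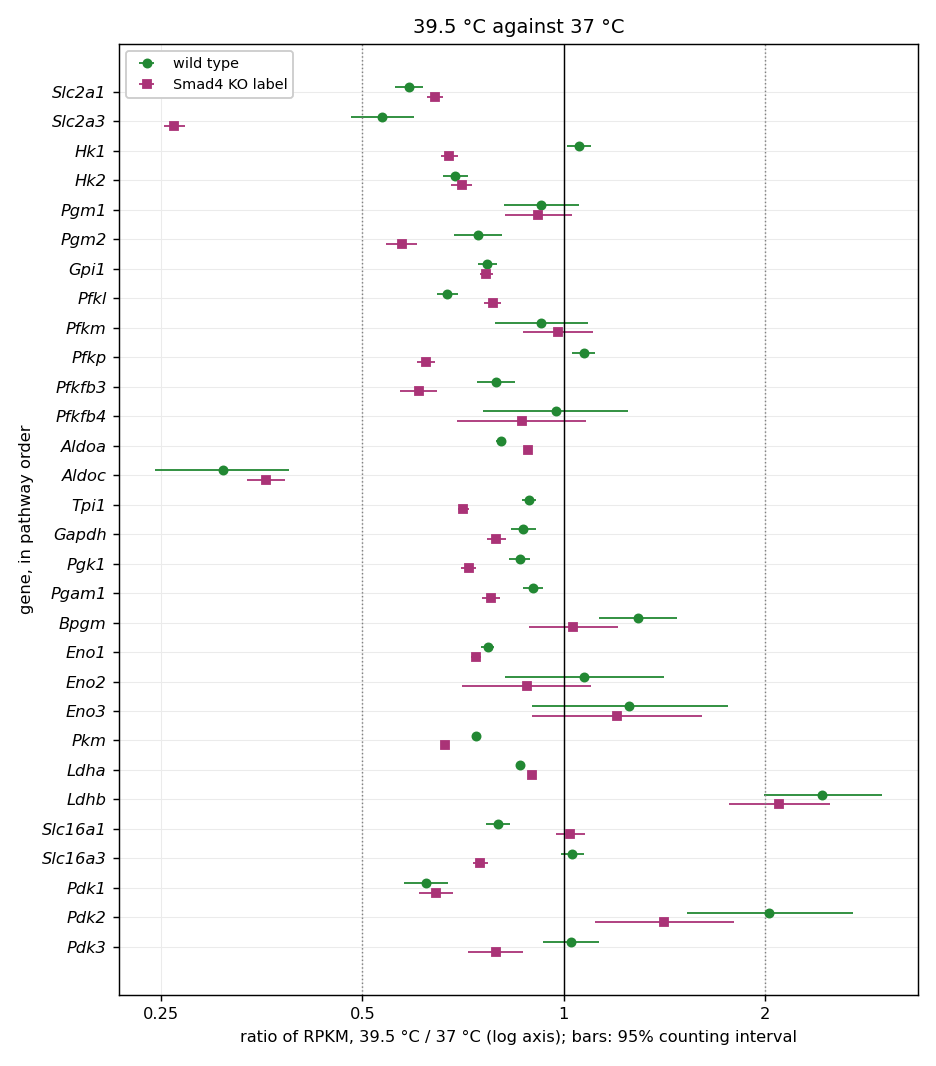
Ratio of RPKM, 39.5 °C over 37 °C (log axis), for the 30 genes tested, with green circles for wild type, purple squares for the Smad4 KO label and bars for 95% intervals of counting error. Most symbols lie to the left of 1, Aldoc and Slc2a3 (KO label) lie lowest, and Ldhb lies above 2 in both genotypes.

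At 39.5 °C, against 37 °C, the pathway stood somewhat lower in both genotypes. Lower values in both pairs were found for 20 of the 30 genes, against 32.7% of all rows, and higher values in both pairs for 4 genes (Bpgm, Eno3, Ldhb and Pdk2), against 27.9%. The median log2 ratio was −0.21 in wild type and −0.37 with the KO label, against −0.02 and −0.01 over all rows. In the limma fit 0 of the 30 genes passed for temperature at an adjusted p under 0.05, as did only 0.0146% (rose) and 0.00729% (fell) of all rows. At an unadjusted p under 0.05, 13 genes were lower and 2 higher, against 6.79% and 7.17% of all rows. With limma-voom on the recovered reads, 2 fell (Slc2a3 and Aldoc) and 1 rose (Ldhb). That setting called 342 of all 13715 rows for temperature, against 3 in the main limma fit. No pair of libraries at the 2 temperatures has a replicate, so ratios between them carry counting intervals only.

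Aldoc was the gene with the lowest ratio in wild type and the only one at least 2-fold lower in both genotypes on the log2(RPKM + 1) scale. Its ratio was 0.309 (0.245 to 0.388) in wild type and 0.359 (0.336 to 0.383) with the KO label (shared log2 −1.35 ± 0.13, limma adjusted p = 0.0699). Slc2a3 had a ratio of 0.536 (0.480 to 0.597) in wild type and 0.262 (0.253 to 0.271) with the KO label, a difference of −1.14 log2 between the genotypes that had no test. In wild type 1 of the 30 genes was at least 2-fold lower against 0.525% of all rows, and with the KO label 2 were, against 0.911%. Slc2a1 was lower by similar ratios, 0.587 (0.560 to 0.615) and 0.642 (0.624 to 0.661), and its adjusted p was 0.121.

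Further along, the genes lower in both pairs included Pdk1 (0.622 and 0.644), Hk2 (0.688 and 0.704), Pkm (0.739 and 0.663), Gpi1 (0.768 and 0.766) and Eno1 (0.769 and 0.740), each given as the ratio in wild type and with the KO label. These 5 genes had similar ratios in both genotypes. Ldha was nearer to 1, at 0.860 (0.848 to 0.873) and 0.896 (0.885 to 0.907). None of these genes passed for temperature, with limma adjusted p of 0.140 to 0.462.

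Ldhb, which encodes the heart-type subunit of lactate dehydrogenase, was among the 4 genes higher at 39.5 °C in both pairs. It stood at 4.76 RPKM in wild type at 37 °C, 11.6 RPKM in wild type at 39.5 °C, 7.01 RPKM with the KO label at 37 °C and 14.7 RPKM with the KO label at 39.5 °C. Both libraries at 39.5 °C lay above both at 37 °C. The RPKM ratio was 2.43 (1.99 to 2.99) in wild type and 2.10 (1.77 to 2.50) with the KO label. On the log2(RPKM + 1) scale Ldhb was the only gene of the 30 at least 2-fold higher in wild type, against 1.46% of all rows, and 0 were with the KO label, against 0.751%. The shared log2 change was 1.05 ± 0.13, with a limma adjusted p of 0.0727. Pdk2 was also higher in both pairs, from 1.28 to 2.60 RPKM in wild type and from 2.15 to 3.04 RPKM with the KO label (ratios 2.03 and 1.41, adjusted p = 0.252). Pfkfb1, under the minimum level, had 26 and 54 reads in wild type and 33 and 68 reads with the KO label at 37 and 39.5 °C.

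Set side by side, the genotype difference was larger at 37 °C than at 39.5 °C for 21 of the 28 genes that were higher with the KO label at 37 °C, against 67.5% of all rows so chosen, a share close to that of all rows. At 37 °C, 8 of the 30 genes were at least 2-fold higher with the KO label on the log2(RPKM + 1) scale (Slc2a1, Slc2a3, Hk1, Pfkp, Aldoc, Pgk1, Slc16a3 and Pgm2), against 4.70% of all rows. At 39.5 °C, 5 were (Slc2a1, Slc2a3, Aldoc, Slc16a3 and Pgm2), against 2.30%, and 0 were at least 2-fold lower at 37 °C (1.14% of all rows) or at 39.5 °C (1.05%). The temperature ratio was lower with the KO label than in wild type for 22 of the 30 genes, against 50.4% of all rows. These are the 21 genes above and Bpgm, since both counts rest on the same difference. This is not a second result, and the 50.4% is not limited to rows higher with the KO label at 37 °C. The temperature ratio was at least 2-fold lower with the KO label than in wild type for 1 gene, Slc2a3, against 1.55%, and at least 2-fold higher for 0, against 0.671%.

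**Figure D4:**
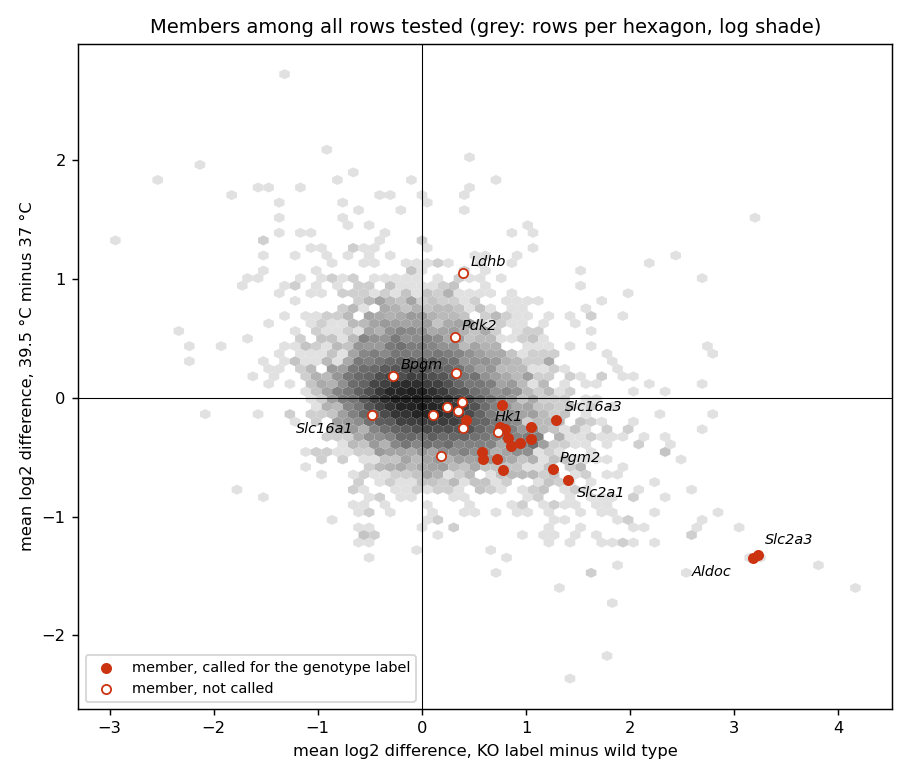
Mean log2 difference with the Smad4 KO label (x) and at 39.5 °C (y), on log2(RPKM + 1), for all 13715 rows (grey hexagons) and the 30 genes (red; filled where called for the genotype label). Both axes use the same 4 libraries. Most of the genes lie to the right of 0 and below 0, Slc2a3 and Aldoc far to the lower right, and Ldhb and Pdk2 above.

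Isoform make-up was compared as the share of each gene in the summed RPKM of the listed genes of its step. Slc2a3 held 8.77% (counting interval 8.21 to 9.35) of the 2 listed glucose transporter genes in wild type at 37 °C and 8.06% (7.39 to 8.78) at 39.5 °C. With the KO label it held 37.1% (36.5 to 37.65) at 37 °C and 19.4% (18.8 to 20.0) at 39.5 °C. Within this pair the GLUT3 share was thus higher with the label at both temperatures and stood lower at 39.5 °C with the label. Other transporter genes were not counted in the share. Of these, Slc2a6 stood at 14.7 and 18.2 RPKM in wild type and at 16.3 and 31.4 RPKM with the KO label, at 37 and 39.5 °C. Slc2a6 was not called for genotype (limma adjusted p = 0.147), and its ratios of 39.5 to 37 °C were 1.24 and 1.92. Slc16a3 held 44.8% (43.8 to 45.8) and 51.1% (50.1 to 52.1) of the lactate transporter pair in wild type and 78.8% (78.1 to 79.5) and 73.2% (72.4 to 73.9) with the KO label. In wild type the pair was near balance, and with the label MCT4 transcripts were in the majority. Aldoc made up 0.973% of aldolase RPKM in wild type at 37 °C, 0.376% in wild type at 39.5 °C, 6.49% with the KO label at 37 °C and 2.74% with the KO label at 39.5 °C.

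In the other steps, Hk1 held 38.0 and 48.4% of hexokinase RPKM in wild type and 51.9 and 50.8% with the KO label, the remainder being almost wholly Hk2. Pfkl led its step in every library with 62.0 to 71.7% of RPKM, which divides by 6675 exon bases for Pfkl and 13401 for Pfkp. Reads alone were nearly equal for Pfkl and Pfkp in wild type at 39.5 °C (5261 and 5247) and with the KO label at 37 °C (9995 and 9895). They were higher for Pfkl in wild type at 37 °C (7415 and 4620) and with the KO label at 39.5 °C (8162 and 6431). Ldhb held 0.709% (0.595 to 0.837) and 1.98% (1.78 to 2.19) of lactate dehydrogenase RPKM in wild type at 37 and 39.5 °C, and 0.795% (0.688 to 0.914) and 1.84% (1.68 to 2.03) with the KO label, so its share was higher at 39.5 °C in both genotypes while Ldha remained above 98% throughout. Among the pyruvate dehydrogenase kinases, Pdk1 held 40.3 and 27.7% in wild type and 48.4 and 41.6% with the label, and Pdk2 held 4.19 and 9.38%, then 4.79 and 9.03%.

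**Figure D5:**
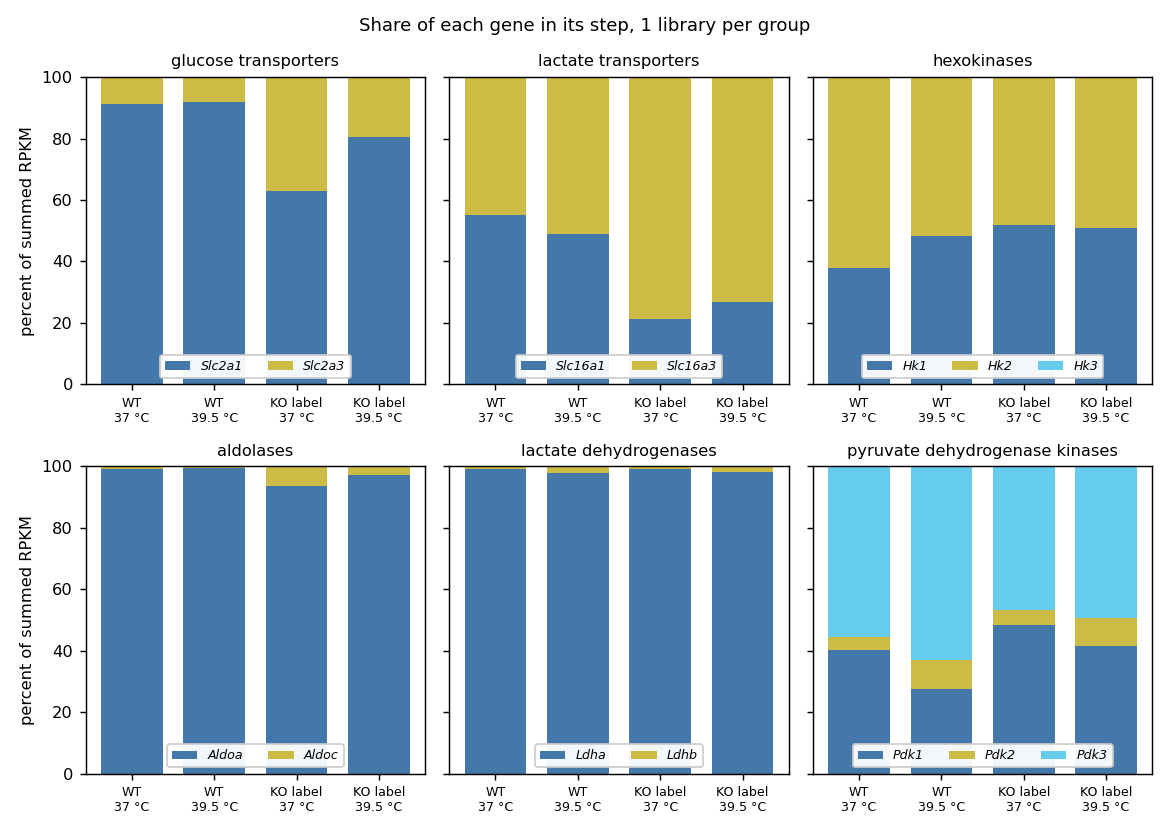
Share of each gene in the summed RPKM of the listed genes of 6 steps (y, percent, with bars that sum to 100), 1 bar per library. The Slc2a3 and Slc16a3 shares are larger with the Smad4 KO label at both temperatures, and the thin Ldhb share is larger at 39.5 °C in both genotypes.

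The levels of several enzymes are uncertain, because the genome holds near-identical copies that have rows of their own. Annotated transcripts of 7 of the 33 genes matched another row at 95% identity or more over at least 200 bases. Only rows whose name stands in the GENCODE vM21 annotation could be matched, and an annotated length was found for 13144 of 19555 rows. Further copies of these or the other genes can therefore have been missed. Eno1b, 99.5% identical to Eno1, was listed at 479 RPKM in wild type at 37 °C against 177 RPKM for Eno1 itself, and Pgk1-rs7, a processed pseudogene, at 288 RPKM against 142 RPKM for Pgk1. Of the reads on a gene and its copies, the gene held 53.1% for Eno1, 46.8% for Pgk1, 57.5% for Gapdh, 58.2% for Pgam1, 61.0% for Ldhb, 84.9% for Tpi1 and 95.3% for Ldha in that library. The sources used here do not give how the authors' counting treated reads that map to several places, so the levels of these genes are uncertain, and how the treatment bears on them was not tested. With the reads of the copies added, the ratios of the KO label to wild type at 37 °C were 1.84 in place of 1.85 for Eno1, 2.38 in place of 2.26 for Pgk1 and 2.0 in place of 1.83 for Gapdh. The temperature ratio of Ldhb in wild type was then 2.55 in place of 2.43, and the count of genes that rose with the label was again 18.

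Other genes tied to the pathway, from a list of 50 of which 28 were tested, had a median log2 difference of 0.04 with the KO label. Of the 28, 5 rose and 1 fell, against 8.57% and 4.70% of all rows. Those that rose were Gys1, the muscle-type glycogen synthase gene (7.79, 7.74, 24.8 and 14.5 RPKM, limma log2 1.19 ± 0.20, adjusted p = 0.0243), Txnip, whose product restrains glucose uptake (19.0, 17.2, 43.3 and 26.7 RPKM, adjusted p = 0.0319), the transporter gene Slc2a8 (2.19, 2.50, 5.42 and 4.57 RPKM, adjusted p = 0.0287), the galactokinase gene Galk1 (adjusted p = 0.0324) and Bsg, which encodes the chaperone of MCT1 and MCT4 (223, 227, 375 and 304 RPKM, adjusted p = 0.0414). Pgm2l1, which makes glucose-1,6-bisphosphate, fell (1.91, 1.61, 0.592 and 0.720 RPKM, adjusted p = 0.0441). Pgam2, the muscle-type mutase gene at 1.11 to 2.23 RPKM, had 17 to 33 reads per library. Its temperature ratios were 1.83 (0.991 to 3.51) in wild type and 0.581 (0.316 to 1.04) with the KO label, and both intervals include 1. The genes of the pyruvate dehydrogenase subunits (Pdha1, Pdhb, Dlat, Dld and Pdhx) and of the mitochondrial pyruvate carrier (Mpc1 and Mpc2) did not pass in either direction.

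Of 20 listed regulators 16 were tested, 2 rose with the KO label and 0 fell, with a median log2 difference of −0.05. Over all rows 8.57% rose, so that the count of regulators is near the background. Both that rose encode the prolyl hydroxylases that mark HIF-1α for degradation and are themselves known HIF targets. Egln3 was at 142 and 113 RPKM in wild type and 538 and 236 RPKM with the KO label (limma log2 1.48 ± 0.21, adjusted p = 0.0185), and Egln1 at 52.2 and 38.2, then 102 and 69.4 RPKM (0.90 ± 0.12, adjusted p = 0.0166). Hif1a itself was at 60.4, 80.7, 63.2 and 63.6 RPKM (adjusted p = 0.532 for genotype) and Myc at 483, 295, 379 and 321 RPKM (adjusted p = 0.602). Mxd1, a MYC antagonist gene, had a ratio to wild type of 3.59 (3.08 to 4.20) at 37 °C and 0.993 (0.879 to 1.12) at 39.5 °C.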

How the data were processed

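Groups were taken from the labels. The authors deposited 1 table of RPKM values per library. The submitters' processing notes name mm10 and, in no stated order, edgeR, featureCounts, Subread, Bowtie2 and Trim Galore 0.4.4. The sources used here give neither their settings nor the strandedness or gene filters. RPKM is already scaled, so no count model was the main test. Whole reads were recovered by finding the library sizes that make RPKM times exon length whole. At GENCODE vM21 lengths, 12053 of 13144 matched rows (91.7%) were whole in all libraries within 0.01 reads, and a searched length served all but 1 of the others, within 0.003 reads. A searched length can be off by a whole factor, which leaves ratios unchanged. Of the 33 genes' lengths, all but that of Pgam1 equal an annotated length.

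Ratios of RPKM carry exact Clopper-Pearson 95% intervals on the recovered reads. These treat each read as an independent count and cover counting error only, with no spread between cultures or mice. Reads copied by PCR and lacking molecular identifiers are no independent molecules, so the intervals can be too narrow even for counting error. The 13715 rows whose mean reached 1 RPKM were fitted as log2(RPKM + 1) with limma 3.58.1 in R 4.3.3, additive in genotype and temperature, with a variance trend (median prior degrees of freedom 4.475) and Benjamini-Hochberg adjustment over all rows. The 2-fold rule uses the same scale, which understates changes of low genes. Copies were sought with blastn 2.17.0. The additive fit and the read recovery were run on simulated data with known answers. Those data held no genotype-by-temperature interaction, which is the residual of the fit here, so they cannot vouch for its p-values. The genes, lists and settings were chosen with earlier results of these data known. Named in full were genes called, at least 2-fold apart in a pair, or isoforms of such genes. The alternatives were other pseudocounts, minimum levels and scalings, no variance trend, limma-voom and copies added to their genes.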

Additional observations from a re-analysis of the deposited data

Results flagged for a closer look

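Hk1 and Pfkp were singled out because their temperature ratios lay on opposite sides of 1 in the genotypes, with both counting intervals clear of 1. For Hk1 the ratio of 39.5 to 37 °C was 1.05 (lower bound 1.01) in wild type and 0.674 (0.655 to 0.694) with the Smad4 KO label, a difference of −0.63 log2 (KO label minus wild type). For Pfkp it was 1.07 (1.03 to 1.11) and 0.623 (0.603 to 0.643), a difference of −0.76 log2. With 1 library per group the difference was not tested. Over all rows tested, 39.5% had temperature ratios of opposite direction in the genotypes, against 6 of the 30 pathway genes. That share is for direction alone. No share of all rows was taken for the stricter rule that singled out Hk1 and Pfkp, so their number cannot be set against all rows.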

How the results depend on the processing

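No paired analysis was possible because each group has 1 library, and for the same reason no library could be left out of a fit and still leave a residual. Of the methods made for counts, only limma-voom was run on the recovered reads. The 2 other count models planned for them were not run. In 9 alternatives, 1 of them (copies added to their genes) chosen after seeing the data, 0 results reversed. Of the 18 genes that rose with the KO label, 16 were called in the 8 alternatives other than that without a minimum level; Pfkl was lost without a variance trend and Ldha in several. The count that rose was 0 with no minimum level, where limma called 0 rows of 19555. The count that fell was 1 with limma-voom and 1 with a minimum mean of 5 RPKM. For temperature, the count that fell was 2 with limma-voom, 5 with a minimum mean of 5 RPKM (Slc2a1, Slc2a3, Aldoc, Pkm and Pdk1) and 1 with a pseudocount of 0.1, and the count that rose was 1 with limma-voom and 1 with a minimum mean of 5 RPKM. With the KO label, 1 gene (Ldhb) was at least 2-fold higher at 39.5 °C with a pseudocount of 0.1, with one of 0.5 and with copies added, in place of 0. Over all 13715 rows limma-voom called 3083 for genotype and 342 for temperature, against 1820 and 3 in the main fit. A minimum mean of 5 RPKM called 2231 and 290 of 8947 rows, and a pseudocount of 0.1 called 1952 and 30 of 13715. Why the counts differ was not tested. Counting error limits Eno2, Eno3, Pdk2 and Pfkfb4, which had 64 to 177 reads per library.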
